A study of Mus musculus with 9 samples.

Results

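The 76 genes described here encode proteins of the cytosolic ribosome. They were chosen by symbol, as Rpl or Rps followed by a number with an optional a or x. Rplp0, Rplp1, Rplp2 and Rpsa were added by name. The rule itself uses no measured value, but it was set with earlier results of these data known. Of the 52550 genes in the table, 46 large subunit and 30 small subunit genes matched. The ribosome reads mRNA on its small subunit and joins amino acids on its large subunit, and each particle holds nearly all of these proteins as single copies. Their genes are transcribed at high rates in growing cells such as embryonic stem cells, and their mRNAs start with a run of pyrimidines that places their translation under control of the mTOR pathway. Mammalian genomes also hold many processed pseudogenes, copies made from the mRNAs of these genes.

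Polyadenylated RNA was profiled by 3′ end sequencing in mouse embryonic stem cells of V6.5, a hybrid line. The tested cells were labelled as double knockouts for the transcription factors KLF2 and KLF4 (DKO, 5 libraries), and the wild-type cells (WT, 4 libraries) served as their control. Both groups grew in serum (15% FBS) together with LIF and 2i, which blocks the kinases GSK and MEK. The labels give neither the deleted parts of the genes, nor the number of clones, nor whether replicates were separate cultures, so that p-values measure only the spread between these libraries, which may be technical. In bulk RNA, a change in the share of cells and a change in RNA per cell cannot be told apart.

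Library totals lay between 6035642 and 6617834 counts in the libraries labelled DKO and between 6557408 and 7098530 in WT. Klf2 stood at 615 ± 19.0 CPM, read counts scaled to the size of the library, in the libraries labelled DKO and 459.6 ± 9.87 CPM in WT (SD, n = 5 and 4), and Klf4 at 1595 ± 140.0 CPM in the libraries labelled DKO and 848 ± 49.1 CPM in WT. Both targeted genes thus counted higher where the label is DKO. Since the labels do not give the deleted parts, these counts cannot check the label. Every direction given here is therefore that of the libraries so labelled. The summed level of 6 stem cell markers was 2238 to 2376 CPM in the libraries labelled DKO and 1600 to 1724 CPM in WT, and all 6 were detected in every library. Of these markers Sox2, Nanog, Esrrb and Dppa5a rose, Zfp42 fell and Pou5f1 did not pass, and Dppa5a (789 CPM in the libraries labelled DKO, 404 CPM in WT) and Sox2 (492 CPM in the libraries labelled DKO, 299 CPM in WT) made most of the difference in the sum. Nanog lies on chromosome 6 and Zfp42 on chromosome 8, where the tested genes within 5 Mb had median log2 fold changes of 0.35 and 0.39. The summed level of 8 fibroblast markers, which feeder layers would bring, was 1.15 to 3.76 CPM in the libraries labelled DKO and 2.64 to 4.40 CPM in WT, with Lum at 0 in every library and Dcn at 0 in every library labelled DKO. The part of these markers in the results was not tested.

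Ribosomal protein genes took a larger share of all counts in libraries labelled DKO than in those of WT, by a modest amount spread over many genes. The share was 3.75%, 3.71%, 3.72%, 3.88% and 3.89% in the 5 libraries labelled DKO, against 3.20%, 3.18%, 3.18% and 3.18% in the 4 WT libraries. The groups did not overlap, and the mean difference was 0.604 percentage points. Large subunit genes held 1.49% ± 0.0337 of the counts in the libraries labelled DKO and 1.29% ± 0.0197 in WT. Small subunit genes held 2.30% ± 0.0672 in the libraries labelled DKO and 1.90% ± 0.0135 in WT (SD, n = 5 and 4). Both subunits were therefore higher in all 5 libraries labelled DKO than in any WT library.

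The balance between the subunits differed less than either sum. The ratio of large to small subunit counts was 0.633, 0.665, 0.666, 0.659 and 0.636 in the libraries labelled DKO, against 0.686, 0.656, 0.687 and 0.678 in WT. These ranges overlapped, since WT 2 lay below 3 of the libraries labelled DKO. The transcripts of the mitochondrial genome held 1.92%, 1.77%, 1.82%, 2.30% and 2.41% of counts in the libraries labelled DKO, against 1.44%, 1.30%, 1.39% and 1.54% in WT. The libraries labelled DKO 4 and DKO 5 were thus the highest both in this share and in the ribosomal protein share. The part of this mitochondrial difference in the result was not tested. With mitochondrial genes left out of the totals, the difference in ribosomal protein share was 0.637 percentage points.

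**Figure D1:**
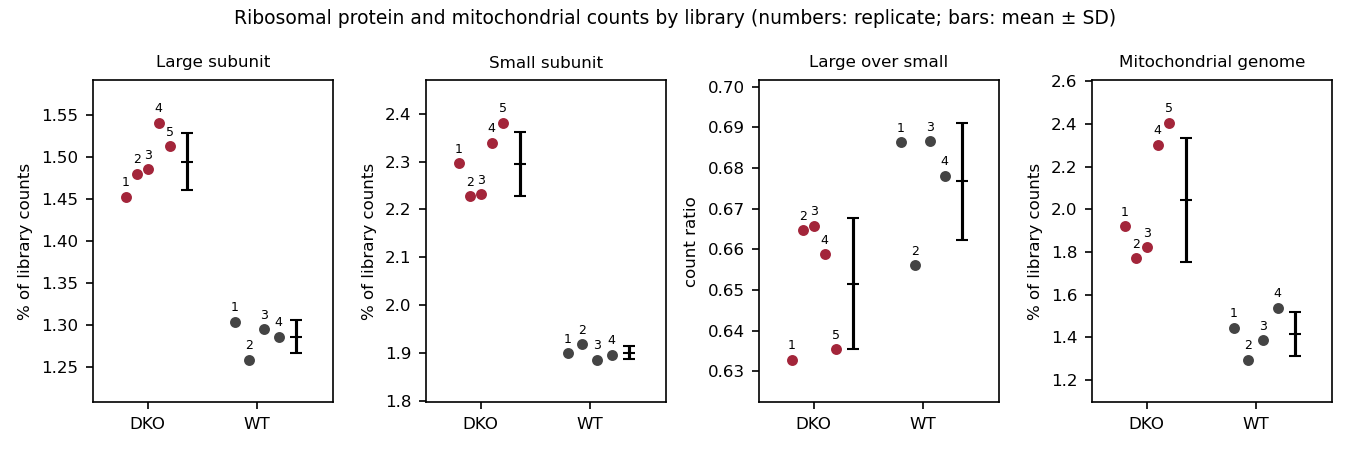
Share of each library's counts on large subunit genes, small subunit genes and the mitochondrial genome, and the ratio of large to small subunit counts. Points are single libraries marked with their replicate number, bars are mean ± SD, and the axes do not start at 0. The libraries labelled DKO lie above WT in the 3 shares, and the groups overlap in the ratio.

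Gene by gene, 41 of the 74 tested ribosomal protein genes rose in the libraries labelled DKO, 2 fell and 31 did not pass (edgeR quasi-likelihood test, Benjamini-Hochberg adjusted p under 0.05 over all genes tested). Across all 11893 genes tested, 23.9% rose and 24.0% fell (47.8% together), so that a call in either direction was common in this comparison. Of the ribosomal protein genes 55.4% rose and 2.70% fell. The median log2 fold change was 0.24 over the 74 genes and 0.01 over all genes tested. In 28 of the 74 (37.8%) every library labelled DKO lay above every WT library, against 18.4% of all genes tested, and in 1 every library labelled DKO lay below, against 19.1% of all. The changes were small: 34 of the 41 genes that rose had log2 fold changes under 0.5.

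Reads decide how much can be seen of each gene. Of the 39 ribosomal protein genes with a mean of at least 100 CPM, 31 rose and 1 fell, with a median log2 fold change of 0.25. Among all 2118 tested genes at that level, 28.4% rose and 31.8% fell (60.2% together), with a median of -0.02. All libraries labelled DKO lay above all WT libraries in 23 of the 39 and below them in 1, against 24.3% and 25.9% of all tested genes at that level. Of the 25 genes between 10 and 100 CPM, 9 rose and 1 fell, with a median of 0.24, and of the 10 tested genes under 10 CPM, 1 rose. By subunit, 22 of 45 large subunit genes and 19 of 29 small subunit genes rose, with medians of 0.18 and 0.25, and 1 fell in each. At 100 CPM or more these counts were 15 of 21 large and 16 of 18 small subunit genes.

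**Figure D2:**
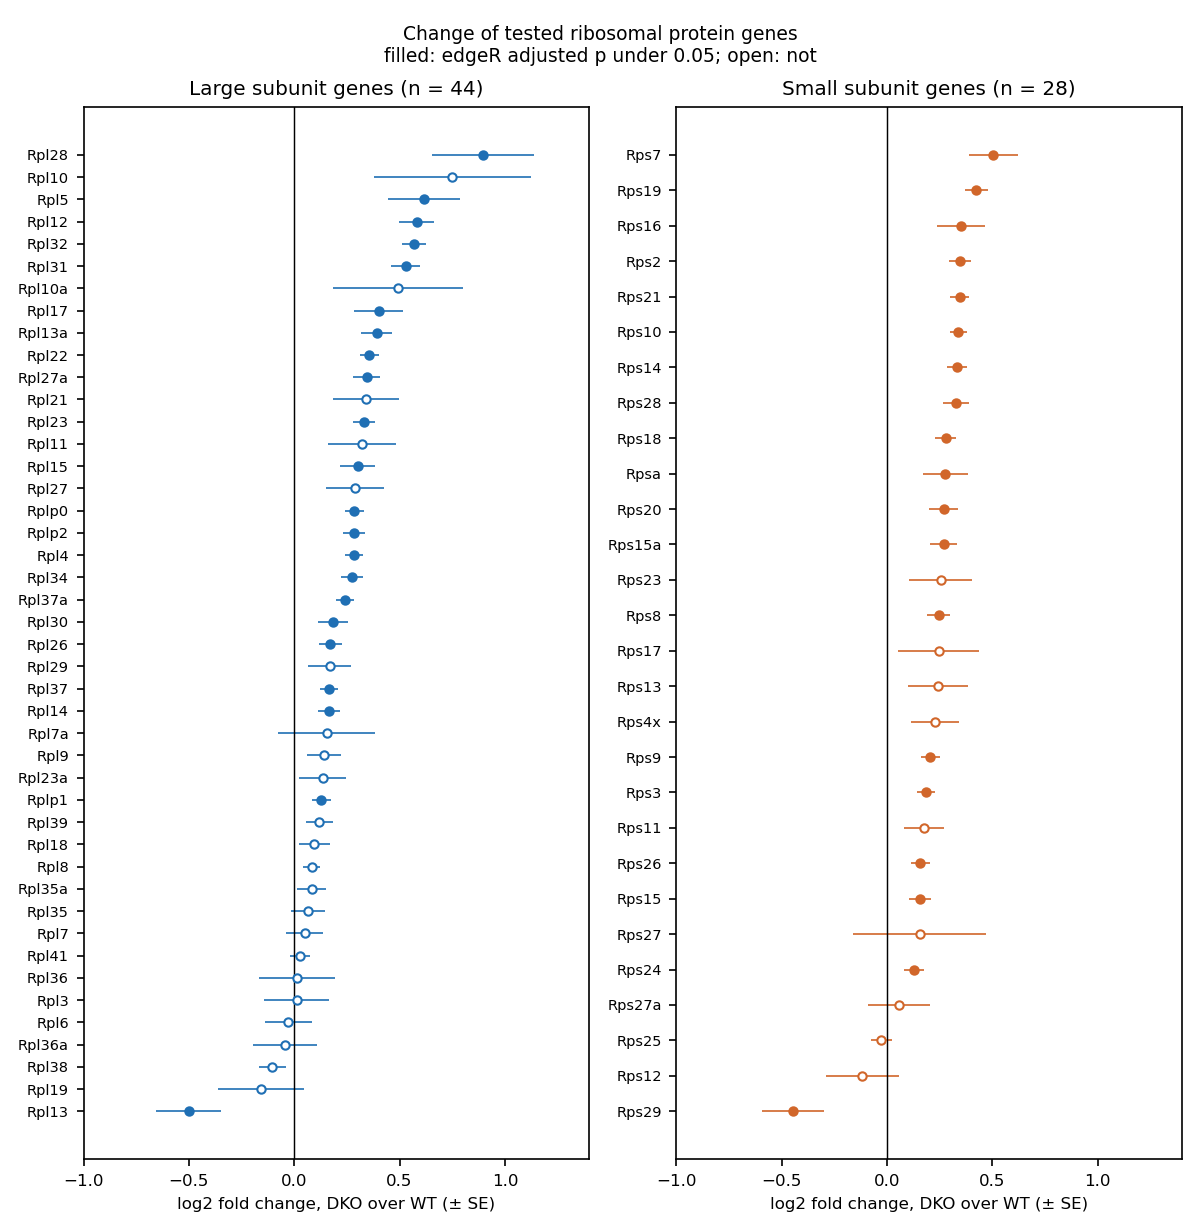
Log2 fold change ± SE, libraries labelled DKO over WT, of 44 large and 28 small subunit genes. Filled points passed an edgeR adjusted p of 0.05. Most points lie to the right of 0, Rpl28 is the highest, and Rpl13 and Rps29 are the only filled points to the left.

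Among the large subunit genes with the largest rises were Rpl28, Rpl5, Rpl12, Rpl32 and Rpl31. Rpl32 (chromosome 6, 115805505 to 115808747, build mm10) had 6657, 7480, 6915, 7447 and 7488 counts in the libraries labelled DKO, against 5420, 4666, 5019 and 5851 in WT, without overlap in CPM, at 1147 ± 95.7 CPM in the libraries labelled DKO and 773 ± 57.3 CPM in WT (SD, n = 5 and 4, log2 fold change 0.57 ± 0.06, edgeR adjusted p = 4.8e-09). Rpl12, at the base of the stalk that recruits translation factors, had 302, 272, 249, 240 and 271 counts in the libraries labelled DKO and 205, 181, 189 and 192 in WT. Its groups did not overlap either (0.58 ± 0.08, edgeR adjusted p = 5.6e-07).

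Rpl31, which lies beside the opening of the exit tunnel, averaged 118 ± 11.7 CPM in the libraries labelled DKO and 81.7 ± 4.97 CPM in WT (log2 fold change 0.53 ± 0.07, edgeR adjusted p = 6.6e-08). Rpl28 rose by 0.90 ± 0.24 (edgeR adjusted p = 0.0027) on few reads, with 31, 24, 31, 25 and 32 counts in the libraries labelled DKO and 16, 12, 18 and 20 in WT. The groups of both genes were apart. Rpl5 encodes a protein that binds 5S rRNA together with Rpl11 and, outside the ribosome, restrains the p53 inhibitor Mdm2. It had 93, 73, 65, 70 and 76 counts in the libraries labelled DKO and 78, 45, 47 and 41 in WT (0.62 ± 0.17, edgeR adjusted p = 0.0033), and WT 1 lay within the range of the libraries labelled DKO. Rpl11 had 9.86 CPM in the libraries labelled DKO and 7.89 CPM in WT and did not pass (0.32 ± 0.16, edgeR adjusted p = 0.097).

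The most abundant large subunit genes moved little or moderately. Rpl8, near the centre where peptide bonds form, had the most reads of the subunit, with 2365 ± 92.0 CPM in the libraries labelled DKO and 2233 ± 41.0 CPM in WT, and did not pass (0.08 ± 0.04, edgeR adjusted p = 0.094). Rpl4, whose protein lines the peptide exit tunnel, had 11418, 11403, 11271, 11342 and 11692 counts in the libraries labelled DKO, against 9849, 9654, 10840 and 10174 in WT. In CPM its groups were apart, and it rose by 0.28 ± 0.04 (edgeR adjusted p = 1.5e-06). Rpl22, which binds RNA and whose loss mice survive, rose by 0.36 ± 0.04 (1444 ± 45.9 CPM in the libraries labelled DKO, 1127 ± 55.7 CPM in WT, edgeR adjusted p = 1.8e-08). Of 8 genes whose proteins stand at the exit tunnel, Rpl4, Rpl17, Rpl26 and Rpl31 rose and none fell. Rpl39, Rpl19, Rpl23a and Rpl35 did not pass. Among all tested large subunit genes 22 of 45 rose and 1 fell, and of all genes tested 23.9% rose and 24.0% fell. A difference between the tunnel genes and the rest of the subunit was not tested.

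The P stalk, a flexible arm that activates translation factors, is made of the products of 3 genes, and all 3 rose. Rplp0 averaged 967 ± 42.8 CPM in the libraries labelled DKO and 793 ± 13.3 CPM in WT (0.29 ± 0.04, edgeR adjusted p = 1.2e-06). Rplp2 averaged 394 ± 34.4 CPM in the libraries labelled DKO and 324 ± 9.92 CPM in WT (0.28 ± 0.05, edgeR adjusted p = 4.2e-05). The groups of these genes were apart. Rplp1 had 7937, 7549, 6685, 7693 and 8070 counts in the libraries labelled DKO and 7371, 7190, 7535 and 7820 in WT, and its groups overlapped (0.13 ± 0.05, edgeR adjusted p = 0.019). Without DKO 4, DKO 5, WT 1 or WT 2, Rplp1 no longer passed (edgeR adjusted p = 0.0524 to 0.0765).

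In the small subunit, Rps7, Rps19, Rps16, Rps2 and Rps21 had the largest rises, and Rps29 fell. Rps19, required for maturation of the small subunit and mutated in Diamond-Blackfan anaemia in humans, had 11519, 10956, 11447, 11043 and 11754 counts in the libraries labelled DKO, against 8729, 8802, 10528 and 8365 in WT. WT 3 was the highest WT library and still lay below every library labelled DKO (0.42 ± 0.06, edgeR adjusted p = 6.5e-07). Rps2, at the entrance of the mRNA channel, averaged 290.0 ± 14.7 CPM in the libraries labelled DKO and 228 ± 12.4 CPM in WT (0.35 ± 0.05, edgeR adjusted p = 8.5e-07). Rps21 averaged 1498 ± 104 CPM in the libraries labelled DKO and 1180 ± 25.9 CPM in WT (edgeR adjusted p = 1.3e-07). Rps7 had 182, 148, 146, 178 and 193 counts in the libraries labelled DKO and 109, 153, 117 and 135 in WT. Rps16, whose protein touches the tRNA in the P site, had 380, 297, 236, 312 and 335 counts in the libraries labelled DKO and 257, 254, 206 and 336 in WT. Both passed (0.50 ± 0.12 and 0.35 ± 0.12, edgeR adjusted p = 0.00045 and 0.016), although their groups overlapped, and Rps16 lost its call without WT 3 (edgeR adjusted p = 0.0592).

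Rps3 and Rps14 were among the genes with the most reads of the small subunit and rose by small amounts. Rps3, at the mRNA entrance, had 27799, 24704, 23842, 25129 and 27832 counts in the libraries labelled DKO, against 23937, 24489, 23984 and 25546 in WT. Scaled for depth, all libraries labelled DKO lay above all WT libraries, with 4110 ± 214 CPM in the libraries labelled DKO and 3617 ± 89.1 CPM in WT (0.18 ± 0.04, edgeR adjusted p = 0.00042). Rps14, a protein of the subunit's platform, rose by 0.33 ± 0.05 (3965 ± 301 CPM in the libraries labelled DKO, 3147 ± 109 CPM in WT, edgeR adjusted p = 3.2e-07). Of 6 genes on the mRNA and decoding side, Rps2, Rps3, Rps15, Rps26 and Rps28 rose and none fell, and Rps23, with a mean of 12.7 CPM, did not pass. At 100 CPM or more, 16 of 18 small subunit genes rose. Of all tested genes at that level, 28.4% rose and 31.8% fell.

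The genes that fell were Rpl13 and Rps29. Rpl13 (chromosome 8, 123102350 to 123105244) had 1480, 2133, 1998, 2111 and 1789 counts in the libraries labelled DKO, against 3338, 2369, 2839 and 3109 in WT. Every library labelled DKO lay below every WT library in CPM, with DKO 1 the lowest, at 304 ± 53.8 CPM in the libraries labelled DKO and 429.8 ± 57.3 CPM in WT. Its log2 fold change was -0.50 ± 0.15 (edgeR adjusted p = 0.029), and it did not pass without DKO 5, WT 1, WT 3 or WT 4 (edgeR adjusted p = 0.0577 to 0.0725). Rps29, a small zinc-binding protein of the subunit's head, had 78, 70, 67, 68 and 52 counts in the libraries labelled DKO and 111, 97, 74 and 111 in WT. The groups overlapped at WT 3 (-0.45 ± 0.15, edgeR adjusted p = 0.012), and the call was lost without WT 1 (edgeR adjusted p = 0.0560).

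Several well measured genes showed values close to 0. Rpl41 averaged 291 ± 14.5 CPM in the libraries labelled DKO and 286 ± 4.12 CPM in WT (0.03 ± 0.05, edgeR adjusted p = 0.69). Rps25 stood at 313 CPM in the libraries labelled DKO and 319 CPM in WT (-0.03 ± 0.05, edgeR adjusted p = 0.67). For these, the standard errors are small enough that a shift as large as the median of the ribosomal protein genes would be several standard errors away. Rpl3 (0.01 ± 0.16), Rpl36 (0.01 ± 0.18), Rpl6 (-0.03 ± 0.11), Rps27a (0.06 ± 0.15), Rps12 (-0.12 ± 0.17) and Rps27 (0.15 ± 0.31) had wider errors and did not pass. None of the 4 X-linked genes passed. Rpl39 averaged 138 ± 14.6 CPM in the libraries labelled DKO and 127 ± 7.57 CPM in WT (0.12 ± 0.07) and Rps4x 35.5 CPM in the libraries labelled DKO and 30.3 CPM in WT (0.23 ± 0.11). Rpl36a stood at 10.3 CPM in the libraries labelled DKO and 10.6 CPM in WT (-0.04 ± 0.15), and Rpl10 at 2.11 CPM in the libraries labelled DKO and 1.25 CPM in WT (0.75 ± 0.37).

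Position on the chromosome moved with the change of a few genes. The median log2 fold change of tested genes within 5 Mb was 0.31 around Rpl32 and -0.57 around Rpl13, each with the sign of the gene itself. Rps20 (0.27) and Rpl37 (0.17) also had neighbours with medians of 0.29 and 0.27. Around the other genes that rose most, the medians were 0.13 for Rpl28, 0.04 for Rpl12 and 0.09 for Rpl31. The part of the neighbourhood in these changes was not tested. Off chromosomes 6 and 8, 39 of 71 genes were higher and 1 was lower, with a median of 0.24. Of all genes tested, 23.9% rose and 24.0% fell. With chromosomes 6, 8 and Y left out of the fit, 2375 of all 10667 genes rose and 2384 fell.

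**Figure D3:**
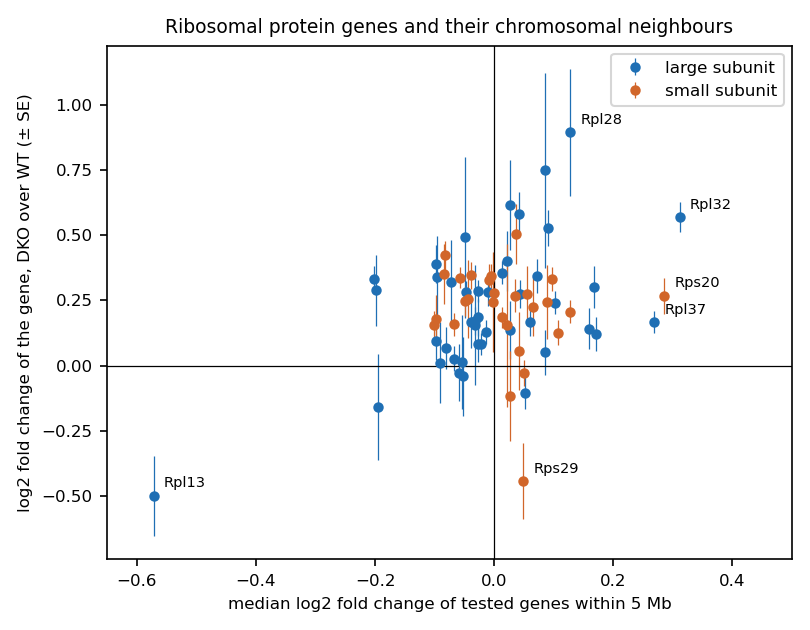
Log2 fold change ± SE of tested ribosomal protein genes against the median log2 fold change of the tested genes within 5 Mb on either side. The 72 genes drawn include Rpl32 at the upper right and Rpl13 at the lower left, while most genes have neighbours with medians near 0 and lie above 0 themselves.

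Levels differed widely between ribosomal protein genes although the ribosome holds nearly all of their proteins as single copies. Each read stands for about 1 transcript end, so that CPM were compared between genes without division by length. The means over 9 libraries lay under 10 CPM for 12 genes, between 10 and 100 CPM for 25, between 100 and 1000 CPM for 27 and at 1000 CPM or more for 12. The 3 genes with most reads held 27.8% of all ribosomal protein counts, and the 20 with most held 84.6%. Rps6, the substrate of S6 kinase, had 4, 4, 2, 3 and 3 counts in the libraries labelled DKO and 2, 2, 4 and 4 in WT, and Rpl24 had 2, 10, 4, 1 and 2 counts in the libraries labelled DKO and 2, 1, 8 and 3 in WT. These 2 genes were too low to test.

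Levels were lower where the 3′ end was less unique. For each gene, the words of 50 bases in the last 300 bases of its coding transcripts were searched in the transcripts of all other genes. In the 10 genes with under 10% of words shared, the median level was 860.2 CPM, against 112 CPM in the 62 genes with 10 to 90% shared and 10.3 CPM in the 4 genes with over 90% shared. Over the 76 genes Spearman's rho was -0.53, as a description, since the genes share libraries and families. Rps6 shared 83.3% of its words with transcripts of 11 genes. Exceptions went both ways, as Rpl6 (24.1 CPM) and Rpl12 (36.1 CPM) shared no word, while Rplp1 (1161 CPM) shared 66.9% of its words. The handling of reads that match several places is not given in the sources used here. The levels of such genes are therefore uncertain as measures of transcription, and the cause of the low values was not tested. Of the 10 genes with under 10% shared, 9 rose and none fell, with a median log2 fold change of 0.25. Of the 60 tested genes with 10 to 90% shared, 31 rose and 2 fell (median 0.24), and of the 4 with over 90% shared, 1 rose (median 0.34), where 23.9% of all genes tested rose.

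**Figure D4:**
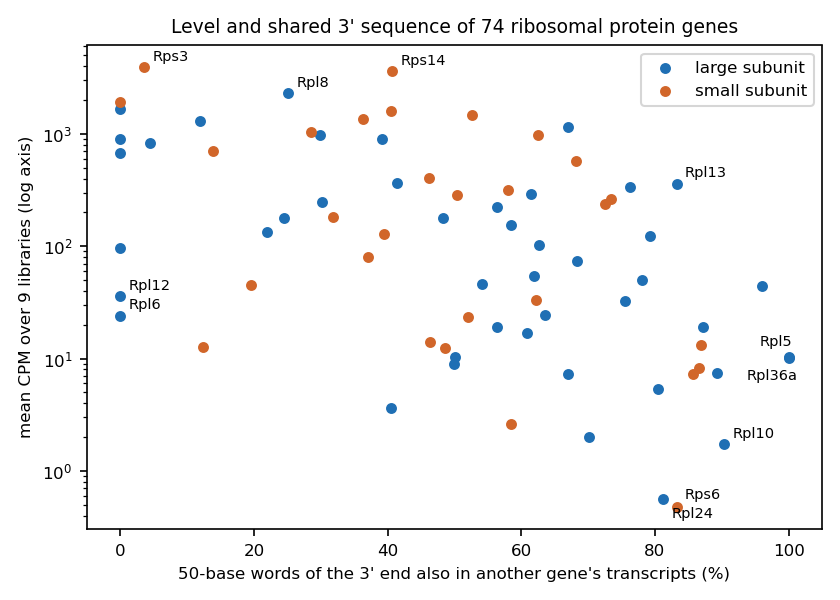
Mean CPM over 9 libraries (log axis) against the share of 50-base words in the 3′ end that also occur in transcripts of another gene, for 74 ribosomal protein genes. Genes at 1000 CPM or more lie mostly to the left, and the lowest, Rps6 and Rpl24, share over 80% of their words.

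Named copies also held reads. The table listed 288 rows whose symbols mark them as copies of these genes, 248 of them with counts, and 8 genes had more reads in their copies than in themselves. Rps13, a protein near the subunit interface, had 815 counts over the 9 libraries, against 17205 in its copies. The processed pseudogene Rps13-ps1 (chromosome 8, 87047689 to 87048226) alone held 6567 counts summed over the libraries labelled DKO and 5307 summed over those of WT. These raw sums cover more libraries labelled DKO than WT and are not scaled for depth, so they do not compare the groups. The last 120 coding bases of Rps13 and the matching stretch of this copy show how little separates them, with the 2 bases that differ in capitals (98.3% identity, transcripts of GENCODE mouse release 21, 5′ to 3′).
Rps13: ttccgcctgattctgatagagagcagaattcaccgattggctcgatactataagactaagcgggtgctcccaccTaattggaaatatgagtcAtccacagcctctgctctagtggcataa
Rps13-ps1: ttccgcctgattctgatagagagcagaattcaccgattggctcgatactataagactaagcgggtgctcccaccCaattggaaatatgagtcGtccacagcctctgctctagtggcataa
Rps13 alone did not pass (log2 fold change 0.24), and with its copies added it rose by 0.15 ± 0.05 (edgeR adjusted p = 0.0139). With copies added to every gene, an alternative chosen after the data were seen, 42 of 75 rose, among them all 41 that rose without them, and 2 fell.

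Paralogues, related genes that can stand in for a ribosomal protein in some tissues, were examined beside their ribosomal protein genes. Of 8 such genes 7 were tested, of which 4 fell and 1 rose, where 24.0% of all genes tested fell and 23.9% rose, with a median log2 fold change of -0.19. Rpl39l, a counterpart of Rpl39 known from male germ cells (chromosome 16, 10170226 to 10174911), had 253, 252, 153, 171 and 180 counts in the libraries labelled DKO, against 987, 1011, 1005 and 1294 in WT. The groups were far apart, at 31.9 ± 6.35 CPM in the libraries labelled DKO and 158 ± 17.3 CPM in WT (-2.31 ± 0.11, edgeR adjusted p = 8.8e-11). Rpl39l shared no 50-base word of its 3′ end with another gene. Its reading frame is as long as that of Rpl39, 156 bases, of which 23 differ, here in capitals (85.3% identity, 5′ to 3′, same source).
Rpl39: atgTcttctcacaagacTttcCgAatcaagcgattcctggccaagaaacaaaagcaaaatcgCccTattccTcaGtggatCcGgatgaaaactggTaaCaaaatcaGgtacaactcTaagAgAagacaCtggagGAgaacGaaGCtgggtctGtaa
Rpl39l: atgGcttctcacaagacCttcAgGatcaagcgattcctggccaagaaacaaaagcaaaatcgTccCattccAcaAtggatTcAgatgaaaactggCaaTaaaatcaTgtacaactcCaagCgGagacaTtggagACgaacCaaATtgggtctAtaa
Of the reads on the pair, Rpl39l held 18.8% ± 3.93 in the libraries labelled DKO and 55.4% ± 1.26 in WT. The log2 ratio of Rpl39l to Rpl39 differed by -2.44, libraries labelled DKO minus WT (exact permutation p = 0.0159, two-sided and the smallest these 9 libraries allow, 0.0317 after Benjamini-Hochberg adjustment over 8 pairs).

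The other pairs were compared in the same way. Rpl10l, the counterpart of X-linked Rpl10 in mouse male germ cells, had 176, 194, 196, 216 and 181 counts in the libraries labelled DKO, against 426, 447, 547 and 448 in WT. It held 93.5% ± 2.98 of the reads of its pair in the libraries labelled DKO and 98.2% ± 0.658 in WT, a log2 ratio difference of -1.85. Rpl10 itself had at most 21 counts in a library and shared 90.4% of its 3′ words, so that this ratio rests on a poorly counted partner. Rpl3l, the counterpart of Rpl3 in striated muscle, had 8, 5, 5, 6 and 5 counts in the libraries labelled DKO and 21, 21, 9 and 18 in WT. It was too low for the test across genes, and its log2 ratio to Rpl3 differed by -1.36. Rpl3 shared 75.6% of its 3′ words and had 1901 counts over the 9 libraries, against 2721 in its copies, so its own count is uncertain. Rpl22l1, which Rpl22 represses in mice, held 10.4% ± 0.909 of the reads of its pair in the libraries labelled DKO and 14.5% ± 0.952 in WT. The log2 ratio differed by -0.55. Rpl22l1 shared 77.3% of its 3′ words and Rpl22 11.9%, and the part of this in the ratio was not tested. Each of these 3 ratios had an exact permutation p of 0.0159 and an adjusted p of 0.0317, with all libraries labelled DKO below all WT libraries.

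Rpl22l1 itself fell by 0.19 ± 0.06 on the log2 scale (edgeR adjusted p = 0.0069) while Rpl22 rose, and its groups overlapped at WT 1. Rpl7l1 fell without overlap of the groups, with 267 ± 16.0 CPM in the libraries labelled DKO and 312 ± 6.91 CPM in WT (-0.22 ± 0.05, edgeR adjusted p = 0.00032), and its ratio to Rpl7 differed by -0.27 (exact permutation p = 0.0952, adjusted 0.152). Rps27l, a p53 target in humans and mice, rose by 0.18 ± 0.05 (366 ± 12.4 CPM in the libraries labelled DKO, 324 ± 20.9 CPM in WT, edgeR adjusted p = 0.0034), with overlapping groups. The ratios of Rps4l to Rps4x (-0.29), Rpl36al to Rpl36a (-0.10) and Rps27l to Rps27 (0.04) had exact permutation p-values of 0.238, 0.667 and 0.857. Rps4l is annotated as a processed pseudogene, yet had 1330 ± 162 CPM in the libraries labelled DKO and 1378 ± 71.4 CPM in WT, far above Rps4x. It lies on chromosome 6 among genes with a median of 0.46. Rps4l shared 12.5% of its 3′ words and Rps4x 62.2%, and the part of this in their levels was not tested.

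**Figure D5:**
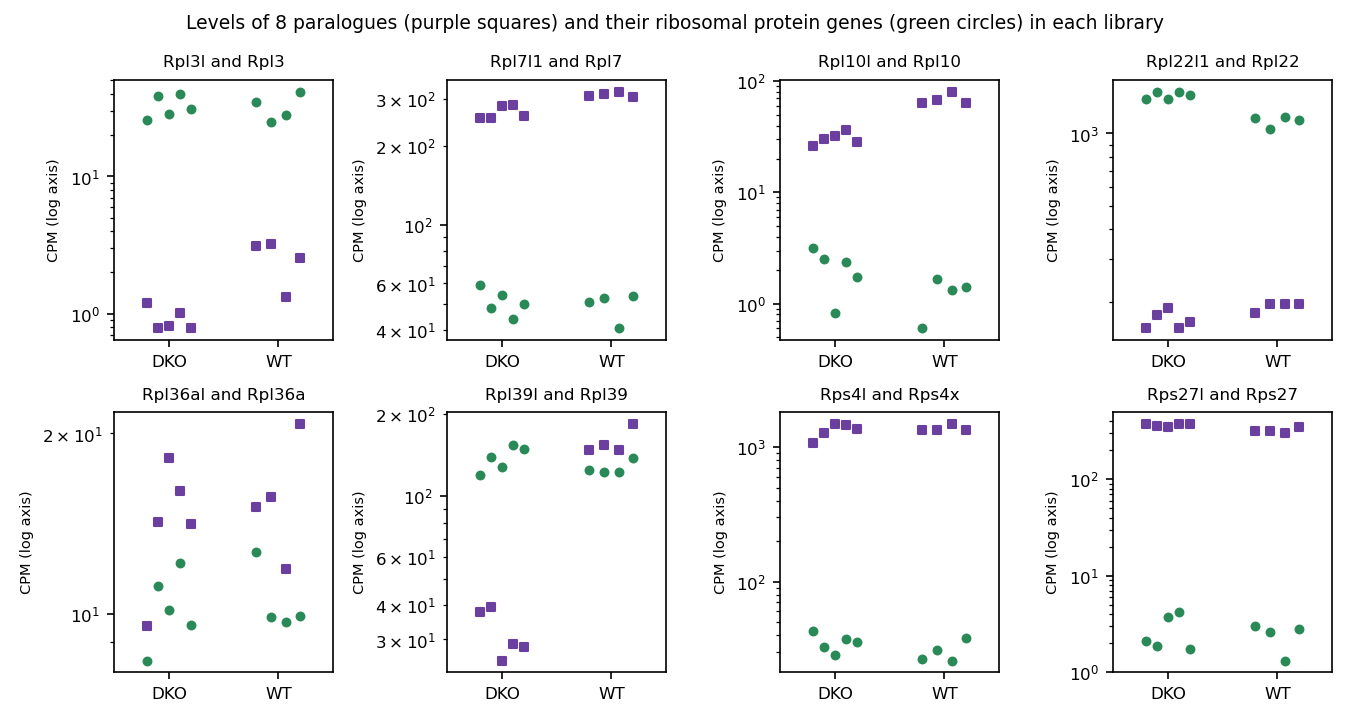
CPM (log axis) in each library of 8 paralogues (purple squares) and of the ribosomal protein genes they resemble (green circles), with the libraries labelled DKO on the left and WT on the right of each panel. Rpl39l, Rpl10l, Rpl3l and Rpl7l1 are lower in every library labelled DKO than in any WT library, and their partners are not.

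Parts of the ribosome whose gene symbols the rule does not match were looked at beside the 76 genes. Rack1, a scaffold on the small subunit, had 23977, 22285, 21120, 22811 and 24656 counts in the libraries labelled DKO, against 19879, 18778, 19378 and 21360 in WT. Its groups were apart, at 3653 ± 195 CPM in the libraries labelled DKO and 2929 ± 89.4 CPM in WT (0.32 ± 0.04, edgeR adjusted p = 1.3e-07). Rps3a1 rose by 0.34 ± 0.09 (edgeR adjusted p = 0.0016). Fau, which encodes a ribosomal protein fused to a ubiquitin-like protein, did not pass (-0.08 ± 0.15).

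Genes of translation factors and of ribosome assembly were counted from lists. Of 15 translation factor and related genes whose mRNAs carry the same kind of pyrimidine start, 8 rose, 1 fell and 6 did not pass, with a median of 0.17, where 23.9% of all genes tested rose and 24.0% fell (28.4% and 31.8% of those at 100 CPM or more). Eef1b2, an exchange factor for elongation factor 1A, averaged 2512 ± 74.4 CPM in the libraries labelled DKO and 2038 ± 34.6 CPM in WT (0.30 ± 0.04, edgeR adjusted p = 9.7e-08), and Eef2, the translocation factor, 1623 CPM in the libraries labelled DKO and 1442 CPM in WT (0.17 ± 0.04, edgeR adjusted p = 0.0013). Eif3f rose by 0.24 ± 0.05 and the histone chaperone Nap1l1 fell by 0.18 ± 0.04 on the log2 scale (edgeR adjusted p = 0.00012 and 0.00033). Of 29 ribosome biogenesis genes, 2 rose (6.90%), 12 fell (41.4%) and 15 did not pass, against the same shares of all genes, with a median of -0.05. Ftsj3, a factor of rRNA processing, averaged 306 CPM in the libraries labelled DKO and 401 CPM in WT (-0.39 ± 0.05, edgeR adjusted p = 1.3e-07), and Tcof1, which supports rRNA transcription, 369 CPM in the libraries labelled DKO and 475 CPM in WT (-0.36 ± 0.05, edgeR adjusted p = 7.8e-07).

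Nip7 (-0.83 ± 0.05, edgeR adjusted p = 1.5e-15) and Nob1 (-0.67 ± 0.07, edgeR adjusted p = 2.4e-10), which act in subunit assembly, fell too, but both lie on chromosome 8 among genes with a median of -0.67. The 2 that rose were Wdr12 (0.21) and Nop2 (0.25), the second on chromosome 6 among genes with a median of 0.35, while Ncl (-0.02) and Npm1 (-0.07), the abundant nucleolar proteins, did not pass. Of 74 tested genes for mitochondrial ribosomal proteins 9 rose (12.2%) and 14 fell (18.9%), below the 23.9% and 24.0% of all genes tested, with a median of -0.04. No test of the difference between these lists was made, and they are given by their counts alone.

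The promoters were searched for known elements in windows from 250 bases before to 50 bases after the start (RefSeq, build GRCm38.p6), of which 66 covered 56 of the 76 genes. Pyrimidine forms were searched on the gene's strand within 20 bases of the start. The word CTTTCC occurred in 15.2% of the windows of ribosomal protein genes, against 1.95% of the 32851 windows of all genes. The word CTTTTC, which can overlap it, occurred in 7.58% against 1.43%. The word TTCTTT, which can overlap either, occurred in 3.03% against 1.60%, and 15 windows (22.7%) held at least 1 of these, against 4.57% of all windows. On both strands of the whole window, the ETS word CCGGAAG occurred in 36.4% of windows against 8.86%, the YY1 word AAGATGGC in 10.6% against 2.75%, the SP word GGGCGG in 60.6% against 35.7%, and CACCC, the core of KLF sites, in 53.0% against 57.5%. These are matches of letters and not bound sites. The windows of all genes cover 27025 genes, among them many too low to test here, since 11893 were tested. A comparison with promoters of expressed or abundant genes alone was not made, so these shares may not be particular to ribosomal protein genes. The 50 bases around the start are shown for 6 genes, to set genes that rose beside 1 that did not pass, with the pyrimidine forms in capitals (30 bases before to 20 after the start, 5′ to 3′ on the gene's strand). Rpl4, Rps10, Rpl28, Rpl12 and Rpl13a rose, and Rpl38 did not pass (-0.10).
Rpl4, chr9:64173357-64173406, plus strand: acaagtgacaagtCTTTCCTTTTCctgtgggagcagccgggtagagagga
Rps10, chr17:27635225-27635274, minus strand: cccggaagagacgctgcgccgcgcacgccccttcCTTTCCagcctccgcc
Rpl28, chr7:4792935-4792984, plus strand: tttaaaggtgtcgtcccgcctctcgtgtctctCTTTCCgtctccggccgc
Rpl12, chr2:32961682-32961731, plus strand: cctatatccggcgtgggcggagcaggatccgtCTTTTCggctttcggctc
Rpl13a, chr7:45128726-45128775, minus strand: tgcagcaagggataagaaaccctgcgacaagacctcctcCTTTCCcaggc
Rpl38, chr11:114668550-114668599, plus strand: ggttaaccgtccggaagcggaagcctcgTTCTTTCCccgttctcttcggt
Such a form stood in the window of 15 tested genes, of which 8 rose and none fell, with a median log2 fold change of 0.27. Of 39 tested genes whose windows held none, 24 rose and 1 fell, with a median of 0.25. Of all tested ribosomal protein genes 55.4% rose and 2.70% fell, and of all genes tested 23.9% rose and 24.0% fell. The difference between genes with and without such a form was not tested.

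Within the groups, some libraries stood at one end more often than others. Among the 39 genes at 100 CPM or more, DKO 4 was the highest of the libraries labelled DKO in 20 and the lowest in none, and DKO 5 was also the lowest in none. DKO 1, DKO 2 and DKO 3 were the lowest in 17, 12 and 10 genes and the highest in 8, 1 and 4, and DKO 5 was the highest in 6. WT 1 to 4 were the lowest WT library in 2, 12, 16 and 9 of the 39 genes and the highest in 11, 3, 10 and 15, so that WT 3 and WT 4 were often at either end. Against the WT mean, the median log2 difference of the abundant large subunit genes was 0.19, 0.17, 0.17, 0.29 and 0.23 in DKO 1 to 5, and that of the small subunit genes 0.25, 0.20, 0.22, 0.31 and 0.27. Each library labelled DKO therefore showed a positive shift in both subunits, and it was largest in DKO 4.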

How the data were processed

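For each of 9 libraries the authors deposited raw counts, whole numbers of reads on the exons of a gene. Per the labels' protocols, Trizol-extracted total RNA (600 ng) entered the forward QuantSeq 3′ kit. The submitters' processing notes list the build mm10 with cutadapt, STAR, featureCounts and DESeq2, without versions or roles. Of annotation release, strand setting and treatment of reads matching several places, none is given in the sources used here, so close copies and overlapping genes are uncertain. Of 52550 identifiers, 52403 matched GENCODE mouse release 21, which gave symbols and positions. All sample columns were used (0 unused).

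Counts were filtered with filterByExpr by group, scaled by TMM and tested in edgeR 4.0.16 (R 4.3.3) by its robust quasi-likelihood method, using all 9 libraries, with Benjamini-Hochberg adjustment over all genes and a threshold of 0.05; the steps were checked on simulated data. Log2 fold changes place DKO over WT and carry an SE, and CPM are TMM-scaled means ± SD. Ratios of paralogue pairs (prior count 0.5) were compared with exact permutation tests over the 126 divisions of the libraries. Replicate pairs of a group differed beyond sampling noise (chi-square per degree of freedom 2.22 to 4.98 over 16 pairs). A floor of 3 counts was 0.423 to 0.497 CPM in a library, and covers counting error only. The labels name no batch. Libraries with the same replicate number were weakly correlated (0.01 to 0.07, over all tested genes after centring each group). Libraries with different numbers were not compared, so whether the numbers pair the libraries is not known. Alternatives were other scalings, filters and tests (DESeq2 1.42.0), a replicate block, chromosomes left out and each library left out. The block used replicates 1 to 4 of each group and so left out DKO 5.

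The genes and lists were chosen with earlier results of these data known. Genes with values were the 6 largest changes that passed per subunit, all that fell, the 3 most abundant and up to 4 nearest 0 per subunit, those on chromosomes 6, 8 and X, the P stalk and 5S RNP, ribosome parts under other names, 8 paralogue pairs, and up to 4 passing genes per other list. A few further genes are named to fill counts or to show a sequence, and were picked after their values were seen. A few that these rules took are neither reported nor drawn here. Among biogenesis genes Riok2 was not analysed here.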

Additional observations from a re-analysis of the deposited data

Results flagged for a closer look

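Of 136 groups of 4 or 5 libraries checked, 9 held a library whose distance to its nearest neighbour took most of the group's range, where chance gives about 1 in 20 groups. In the libraries labelled DKO, DKO 5 had 271 CPM of Ftsj3 against 309 to 318 CPM in the other 4. DKO 5 also had 8.17 CPM of Rps29 against 11.0 to 11.7 CPM. DKO 1 had 317 CPM of Rpl41 against 281 to 289 CPM. In WT, WT 1 had 30.7 CPM of Rpl12 against 27.3 to 27.8 CPM in the other 3. WT 1 also stood apart with 179 CPM of Rpl22l1 (195 to 196 CPM in the others), 12.7 CPM of Rpl36a (9.70 to 9.94 CPM) and 773.5 CPM of Rplp0 (798 to 802 CPM). WT 4 had 138 CPM of Rpl39 against 123 to 125 CPM, and WT 3 had 1484 CPM of Rps4l against 1333 to 1349 CPM.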

How the results depend on the processing

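The count of ribosomal protein genes that rose, 41, was 39 to 42 under other scalings, filters and tests, 41 with the replicate block (40 of them the same genes), and 35 to 45 with 1 library left out. DESeq2 called 40, all among the 41, and 34 of the 41 held without each library in turn; Rpl14, Rpl30, Rplp1, Rps15, Rps16, Rps24 and Rpsa did not. Large subunit rises were 19 to 24 and small subunit rises 16 to 21 with 1 library left out. The count that fell, 2, was 1 without a filter, without chromosomes 6, 8 and Y, and with the replicate block, and 0 to 3 with 1 library left out (0 without WT 1, 1 without DKO 5 or WT 4, 3 without DKO 1). Rpl13 had an edgeR adjusted p of 0.0630 without a filter and 0.184 with the block. The block also left out DKO 5, and leaving out DKO 5 alone gave Rpl13 an edgeR adjusted p of 0.0634. The share difference of 0.604 percentage points was 0.578 to 0.624 with 1 library left out and 0.539 without the top gene of each subunit (3.14% in the libraries labelled DKO, 2.60% in WT). The ratio difference of -0.0252 was -0.0321 to -0.0206. Of the genes named, 10 that did not pass changed sign, still without passing, when 1 library was left out: log2 fold changes ran from -0.096 to 0.15 for Rpl3, -0.089 to 0.11 for Rpl36, -0.11 to 0.055 for Rpl36a, -0.26 to 0.012 for Rpl36al, -0.0064 to 0.037 for Rpl41, -0.11 to 0.053 for Rpl6, -0.037 to 0.10 for Rpl7, -0.052 to 0.28 for Rps27, -0.024 to 0.16 for Rps27a and -0.090 to 0.016 for Rps4l. With the block, Rpl36 was -0.049 and Rps27a -0.028, and Rps12 was 0.091 with copies added. Rpl10 without DKO 3, Rpl39 without DKO 1 and Rps4x without DKO 3 or WT 4 passed. No scaling moved the median of all genes by over 0.1. Whether replicate numbers pair the libraries is not known, so the libraries of a block only share a number. Adding copies and leaving out the row with most counts (41 rises, 2 falls) were chosen after the data were seen. At under 10 CPM, differences near the median of 0.24 were not detectable at this depth.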

Other observations

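Of 11 genes that control ribosomal protein synthesis or respond to it, 4 rose (36.4%), 3 fell (27.3%) and 4 did not pass, where 23.9% of all genes tested rose and 24.0% fell. Mycn, a MYC family transcription factor, averaged 129 CPM in the libraries labelled DKO and 68.5 CPM in WT (log2 fold change 0.92 ± 0.07, edgeR adjusted p = 5.7e-12). Rps6kb1, the kinase of the small subunit protein Rps6, averaged 61.0 CPM in the libraries labelled DKO and 46.4 CPM in WT (0.39 ± 0.08, edgeR adjusted p = 5.7e-05). Larp1, which binds mRNAs with a pyrimidine start, rose by 0.19. Eif4ebp1, a repressor of the cap-binding factor eIF4E, averaged 596 CPM in the libraries labelled DKO and 464 CPM in WT (0.36 ± 0.05, edgeR adjusted p = 5.2e-08), and its neighbours on chromosome 8 had a median of 0.49. Eif4ebp2, its relative, fell by 0.17 ± 0.05 on the log2 scale (edgeR adjusted p = 0.004), and Rptor, a subunit of the mTOR complex, fell by 0.35. Myc fell by 0.85 at a low level of 1.99 CPM in the libraries labelled DKO and 3.56 CPM in WT.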
